A study of Rattus norvegicus with 24 samples.

Results

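Neural stem cell factors and markers are the genes by which undifferentiated neural cells are recognised. Of the 7 listed genes (Sox2, Sox3, Sox9, Pax6, Msi1, Fabp7 and Prom1), 6 were found by symbol among the 12187 genes of the deposited table, and Sox3 was not analysed here. All 6 passed the filter on low values. They were followed through 3 groups of cells from Sprague-Dawley rats, with 2 RNA-seq libraries each: stem cells differentiated with vitamin C (VC+), stem cells differentiated without it (VC-), and the undifferentiated neural stem cells (D0). The labels of the differentiated libraries carry D4 in replicate 1 and D5 in replicate 2. The vitamin C dose, the age of the animals and whether replicates came from separate cultures are not given in the sources used here. P-values therefore set differences against the spread between these libraries only. Whether that spread is technical or lies between cultures was not tested.

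In the developing brain, radial glia and the neural stem cells derived from them divide while a network of transcription factors holds back differentiation. Sox2 and Sox9 are HMG-box transcription factors of that network, and Sox9 is also a regulator of the switch to glia. Pax6 is a paired-domain and homeodomain factor of dorsal forebrain progenitors. Msi1 (Musashi) is an RNA-binding protein that represses translation of differentiation factors. Fabp7 (brain lipid-binding protein) is a fatty acid carrier of radial glia and astrocytes. Prom1 (CD133) is a membrane protein of cell protrusions that is used to sort stem cells and is also found on ependymal cells. Vitamin C is a cofactor of dioxygenases that remove methyl groups from DNA and histones, and the study asked how it alters differentiation.

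Promoter windows of Sox2, Pax6, Fabp7 and Prom1 are shown because promoter sequences were found for only these 4 of the 6 genes. They include a steady gene, a pair that differed together between replicates, and the gene that differed most between groups. The sequences are RefSeq's on the GRCr8 build, all on the plus strand, from 250 bases before to 50 bases after an annotated start. Capitals mark TTGGC on either strand (GCCAA), the core of the site bound by nuclear factor I (NFI) proteins, which the study also immunoprecipitated. Those samples were not analysed here. For Prom1 the more upstream of its annotated windows is shown.
Sox2: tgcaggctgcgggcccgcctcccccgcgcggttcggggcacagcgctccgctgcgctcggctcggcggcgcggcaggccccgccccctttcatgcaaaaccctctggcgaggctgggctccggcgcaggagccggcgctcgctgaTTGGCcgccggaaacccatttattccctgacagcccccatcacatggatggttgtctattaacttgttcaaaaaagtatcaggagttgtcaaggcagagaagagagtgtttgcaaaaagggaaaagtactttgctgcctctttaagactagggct
Pax6: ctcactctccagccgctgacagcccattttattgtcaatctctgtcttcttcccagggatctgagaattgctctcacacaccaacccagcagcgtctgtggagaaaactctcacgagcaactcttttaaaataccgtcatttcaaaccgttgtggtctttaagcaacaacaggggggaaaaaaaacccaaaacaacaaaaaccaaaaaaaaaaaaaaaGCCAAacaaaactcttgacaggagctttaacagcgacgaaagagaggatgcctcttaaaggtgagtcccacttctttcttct
Fabp7: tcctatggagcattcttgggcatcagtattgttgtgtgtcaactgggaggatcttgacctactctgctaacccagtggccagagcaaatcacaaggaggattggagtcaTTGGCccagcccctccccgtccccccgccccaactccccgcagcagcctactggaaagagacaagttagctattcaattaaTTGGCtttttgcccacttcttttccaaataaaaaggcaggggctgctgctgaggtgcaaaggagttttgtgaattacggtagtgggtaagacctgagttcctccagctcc
Prom1: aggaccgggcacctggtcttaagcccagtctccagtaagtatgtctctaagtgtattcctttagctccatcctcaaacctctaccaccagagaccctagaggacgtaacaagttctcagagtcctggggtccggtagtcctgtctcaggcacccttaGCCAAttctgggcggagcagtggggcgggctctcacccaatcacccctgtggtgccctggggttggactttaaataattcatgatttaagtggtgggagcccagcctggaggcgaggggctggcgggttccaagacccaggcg
The windows lie at chr2:119464881-119465180 for Sox2, chr3:112590346-112590645 for Pax6, chr20:37669356-37669655 for Fabp7 and chr14:71202395-71202694 for Prom1. The core occurred at 2 positions in the Fabp7 window, starting 141 and 60 bases before the start. It occurred once in each of the others, 105 bases before the start in Sox2, 32 in Pax6 and 93 in Prom1. Of all 33469 RefSeq promoter windows, 45.8% hold the core. The CCAAT box (CCAAT on either strand), which overlaps the core by letters in GCCAAT, was found in the Sox2, Fabp7 and Prom1 windows, and in 37.5% of all windows. The Prom1 window not shown held neither the core nor the CCAAT box. Every marked core in the shown Sox2, Fabp7 and Prom1 windows overlapped a CCAAT box. The full palindromic NFI site, with both cores and a fixed spacer, and ACAATG, a SOX-type motif searched on both strands, were found in none of these 4 windows, and in 0.0418% and 13.2% of all windows.

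The libraries held 4811094 to 13184601 reads over the listed genes, and each replicate 2 library was deeper than every replicate 1 library. The limma test of replicate 2 against replicate 1, with groups in the fit, called 2971 of the 11823 genes tested (25.1%). That count rests on single libraries: it was 754 without VC+ replicate 1, 731 without VC+ replicate 2, 58 without VC- replicate 1, 0 without VC- replicate 2, 4945 without D0 replicate 1 and 5049 without D0 replicate 2. Values are CPM (read counts scaled to each library's total), which do not correct for gene length, so levels are compared within a gene only. Differences between groups are log2(CPM + 0.5) values from limma, a linear model fitted over all genes, with 2 libraries per group. The standard error (SE) uses a spread pooled over the 3 groups and drawn toward that of other genes. The spread of the D0 libraries thus also enters the SE of VC+ against VC-. The group fit has no replicate term, so differences between the replicate sets enter its SE. A gene was called at a Benjamini-Hochberg adjusted p under 0.05. In bulk RNA, fewer cells of a type and less RNA per cell cannot be told apart.

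**Figure D1:**
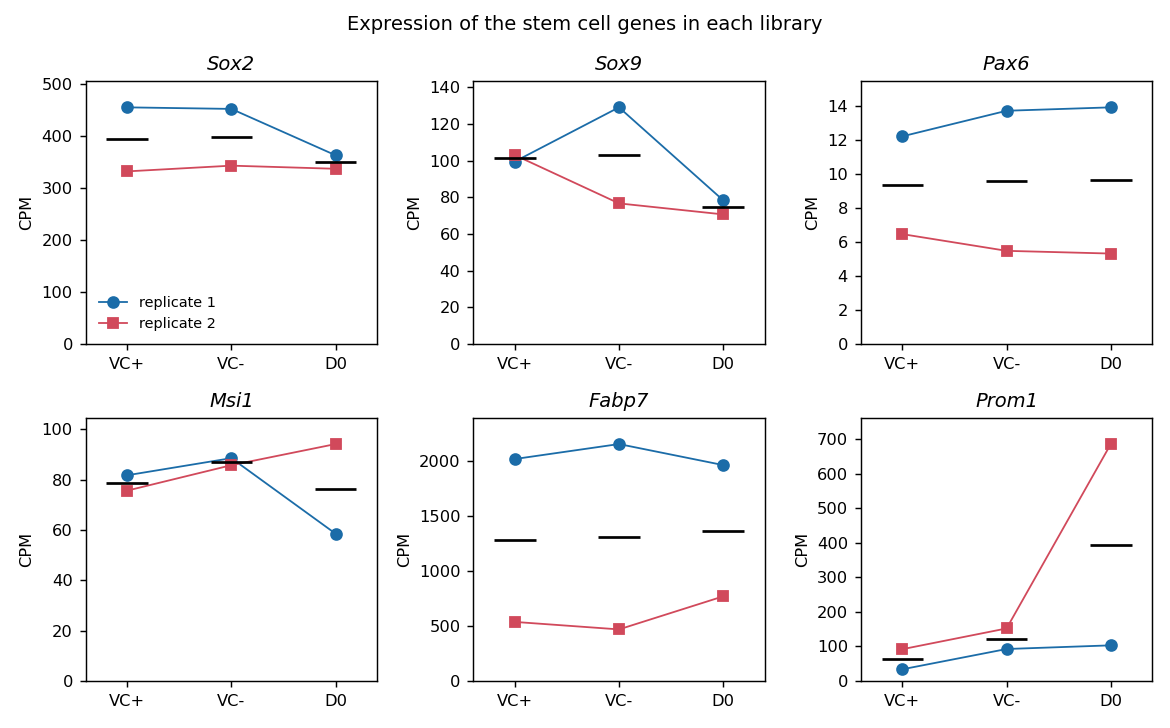
Expression (CPM, linear axes from 0) of the 6 genes in each library; points are libraries, lines join libraries with the same replicate number, and black bars are group means of 2 libraries. Prom1 reached 686 CPM in D0 replicate 2 and was between 33.7 and 152 CPM in the 4 differentiated libraries, while Fabp7 and Pax6 separated by replicate in every group.

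Sox2 had similar levels in all groups. It stood at 455 and 332 CPM in VC+ cells, 452 and 343 CPM in VC- cells, and 363 and 337 CPM in D0 cells (replicates 1 and 2). The highest library was 1.37-fold above the lowest, and 84.6% of genes tested had a larger standard deviation across the 6 libraries. Group means were 394 ± 86.9 CPM in VC+, 397 ± 77.2 CPM in VC- and 350 ± 18.4 CPM in D0 cells (SD, n = 2 each), and neighbouring groups overlapped. In replicate 1 the differentiated cells were above D0, with CPM ratios of 1.25 for VC+ (95% counting interval 1.20 to 1.31) and 1.24 for VC- (1.18 to 1.31). In replicate 2 the ratios to D0 were 0.985 (0.950 to 1.02) and 1.02 (0.979 to 1.05). Counting intervals compare 1 library with 1 library and cover read sampling only. The limma differences were -0.02 for VC+ against VC- (SE 0.30, 95% interval -0.79 to 0.76), 0.17 for VC- against D0 (-0.60 to 0.94) and 0.15 for VC+ against D0 (-0.62 to 0.92). Each interval holds changes in either direction. These intervals are not adjusted for the number of genes and do not give the size of change that the test could call.

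Sox9 stood higher in the differentiated cells than in stem cells within each replicate. It stood at 99.5 and 103 CPM in VC+ cells, 129 and 76.7 CPM in VC- cells, and 78.4 and 70.7 CPM in D0 cells. VC+ did not overlap D0, whereas VC- replicate 2 lay below D0 replicate 1. The difference was 0.44 for VC+ against D0 (SE 0.30, 95% interval -0.33 to 1.21) and 0.41 for VC- against D0 (SE 0.30, -0.35 to 1.18), and neither passed the test (adjusted p 1.00 for both, limma). Without VC- replicate 1 the difference for VC- against D0 was 0.04, and without VC- replicate 2 it was 0.79. By replicate, VC+ exceeded D0 1.27-fold (counting interval 1.15 to 1.40) in replicate 1 and 1.45-fold (1.35 to 1.57) in replicate 2. VC- exceeded D0 1.64-fold in replicate 1 (1.49 to 1.81) and 1.08-fold in replicate 2 (1.00 to 1.17). Between VC+ and VC- the replicates pointed in opposite directions, with ratios of 0.772 (0.709 to 0.841) and 1.34 (1.25 to 1.43), and the fitted difference was 0.02 (SE 0.30).

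Pax6 was the lowest-read of the 6 genes, with 81 to 138 reads per library. It stood at 12.2 and 6.46 CPM in VC+ cells, 13.7 and 5.48 CPM in VC- cells, and 13.9 and 5.32 CPM in D0 cells. Each replicate 2 library was below each replicate 1 library, while within a replicate the counting interval of every ratio between groups included 1. For VC+ against D0 these ratios were 0.883 (0.679 to 1.15) in replicate 1 and 1.21 (0.916 to 1.62) in replicate 2. Group differences were 0.03 for VC+ against VC-, 0.01 for VC- against D0 and 0.04 for VC+ against D0 (SE 0.71 each). At this depth and spread a difference of 1 on the log2 scale between groups would lie inside the 95% intervals, which ran from -1.78 to 1.84 for VC+ against VC-. That spread includes the replicate difference. With the replicate number in the limma fit, the SE for VC+ against VC- was 0.271.

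Msi1 stood at 81.7 and 75.6 CPM in VC+ cells, 88.5 and 85.7 CPM in VC- cells, and 58.5 and 94.1 CPM in D0 cells. VC+ lay below VC- without overlap, by 0.15 on the log2 scale (-0.15, SE 0.28), with ratios of 0.924 (counting interval 0.837 to 1.02) in replicate 1 and 0.882 (0.823 to 0.946) in replicate 2. Both differentiated groups lay inside the range of the 2 D0 libraries. Against D0, VC- was 1.51-fold (1.35 to 1.70) in replicate 1 and 0.911-fold (0.848 to 0.979) in replicate 2, and VC+ was 1.40-fold (1.25 to 1.57) and 0.804-fold (0.748 to 0.864). The direction of the Msi1 difference from stem cells was thus opposite in the replicates, and the fitted values were 0.23 (SE 0.28) for VC- and 0.08 (SE 0.28) for VC+.

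Fabp7 was the most read of the 6 genes, with 8702 to 21069 reads per library. It stood at 2016 and 536 CPM in VC+ cells, 2152 and 468 CPM in VC- cells, and 1961 and 768 CPM in D0 cells. In replicate 1 the differentiated cells were close to D0, at 1.03-fold (counting interval 1.01 to 1.05) for VC+ and 1.10-fold (1.07 to 1.12) for VC-. In replicate 2 they were lower, at 0.699-fold (0.681 to 0.717) for VC+ and 0.609-fold (0.592 to 0.626) for VC-. VC+ was 0.937-fold VC- (0.919 to 0.956) in replicate 1 and 1.15-fold (1.12 to 1.18) in replicate 2. The groups overlapped throughout, with differences of 0.05 for VC+ against VC-, -0.29 for VC- against D0 and -0.24 for VC+ against D0 (SE 1.07 each). The replicate difference enters that SE. With the replicate number in the limma fit, the SE for VC+ against VC- was 0.343.

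Prom1 was the member that differed most between groups. It stood at 33.7 and 91.9 CPM in VC+ cells, 92.4 and 152 CPM in VC- cells, and 103 and 686 CPM in D0 cells. Both replicates had the same order, VC+ lowest, VC- between and D0 highest. VC+ lay below both VC- and D0 without overlap, but its higher library (91.9 CPM) came close to the lower VC- library (92.4 CPM), while VC- and D0 overlapped. Group means were 62.8 ± 41.2 CPM in VC+, 122 ± 41.9 CPM in VC- and 394 ± 413 CPM in D0 cells (SD, n = 2 each).

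Within replicates, VC+ had 0.364 times the Prom1 level of VC- in replicate 1 (counting interval 0.321 to 0.414) and 0.606 times in replicate 2 (0.572 to 0.642). Against D0, VC+ had 0.328 times the level (0.289 to 0.373) and 0.134 times (0.128 to 0.141), and VC- had 0.901 times (0.816 to 0.995) and 0.221 times (0.212 to 0.231). The fitted differences were -1.08 for VC+ against VC- (SE 1.01, 95% interval -3.67 to 1.51), -1.16 for VC- against D0 (SE 1.01, -3.75 to 1.43) and -2.24 for VC+ against D0 (SE 1.01, -4.83 to 0.34). None passed the limma test (adjusted p 1.00 for each). With the replicate number in the limma fit, the SE for VC+ against VC- was 0.486. Of all genes tested, 0.677% were at least as far below VC- in VC+ cells, and 0.626% at least as far below D0. D0 replicate 2 alone carried much of the distance from stem cells: without it the difference was -0.87 for VC+ against D0 and turned to 0.21 for VC- against D0. Comparisons with D0 share the D0 libraries, so the differences of VC+ and VC- from D0 are not independent of each other.

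**Figure D2:**
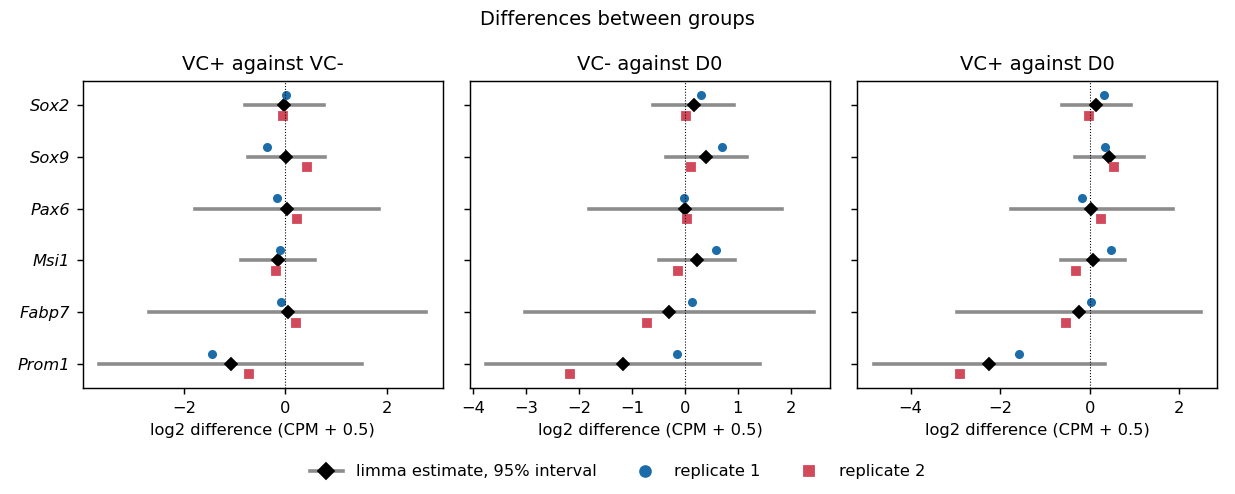
Log2 differences of each gene for VC+ against VC-, VC- against D0 and VC+ against D0 (each panel has its own x axis); diamonds and grey bars are the limma estimate and its 95% interval over all 6 libraries, and coloured points are the difference within each replicate. Every 95% interval includes 0, and Prom1 is the gene farthest to the left in all 3 panels, from -1.08 to -2.24.

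Across the 6 genes limma called no difference between groups. It called 0 of 6 members and 0% of all genes for VC+ against VC-, for VC- against D0 and for VC+ against D0, with 62, 382 and 507 genes at an unadjusted p under 0.05. EdgeR's quasi-likelihood test on recovered reads also called 0 genes in each, while DESeq2 called 6, 71 and 137 genes (0.0507%, 0.638% and 1.18%) and none of the members. For VC+ against VC-, where the libraries of a number share a D label, a fit with the replicate number as a block called 0 genes in limma and 32 in DESeq2 (0.271%), again with none of the members. Taking VC- and VC+ together against D0, which sets 4 libraries against 2, gave 0.16 (SE 0.26) for Sox2, 0.43 (SE 0.26) for Sox9, 0.03 (SE 0.61) for Pax6, 0.16 (SE 0.24) for Msi1, -0.26 (SE 0.92) for Fabp7 and -1.70 (SE 0.88) for Prom1, and called 0% of all genes, with 604 at an unadjusted p under 0.05 and 177 called by DESeq2 (1.50%). For Prom1 this combined difference was -0.33 without D0 replicate 2 and -3.07 without D0 replicate 1.

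Against D0 the libraries share only a replicate number, and there the block changed the Prom1 call in one tool. DESeq2 with the block called Prom1 lower in VC+ than in D0 (adjusted p 1.47e-04) and lower in VC- and VC+ together than in D0 (adjusted p 0.00134), but not in VC- against D0 (adjusted p 0.199). It called none of the other 5 members, and it called 6.66%, 7.22% and 4.02% of all genes in these comparisons. Limma with the block did not call Prom1 (adjusted p 0.154, 0.169 and 0.406) and called 7 genes (0.0592%) in the combined comparison. The biological coefficient of variation in edgeR was 0.652 without a replicate term and 0.267 with one, so a count of 0 without the block says little about whether genes differ between groups.

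Group ranges were compared as well. In VC+ against VC-, 2 of the 6 members (Msi1 and Prom1) were lower without overlap, against 7.82% of all genes lower, 8.15% higher and 16.0% in either direction. In VC+ against D0, 1 member (Sox9) was higher and 1 (Prom1) lower without overlap, against 14.2% and 13.2% of all genes, 27.4% in all. In VC- against D0 all 6 overlapped, where 13.8% of all genes were higher and 13.2% lower without overlap, 26.9% in all. Of the members, 5 lay within 0.5 on the log2 scale in each of these 3 comparisons, as did 85.6%, 70.3% and 67.6% of all genes.

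Replicate number separated Fabp7, Pax6, Prom1 and Sox2 in every group: Fabp7, Pax6 and Sox2 were lower in replicate 2 throughout, as were 31.8% of all genes, and Prom1 higher, as were 32.5%. In the differentiated cells it cannot be told apart from the D4 and D5 labels. Fabp7 fell in replicate 2, to 536, 468 and 768 CPM in VC+, VC- and D0 cells, against 2016, 2152 and 1961 CPM in replicate 1, a difference of -1.82 (SE 0.28, adjusted p 0.0146, limma with groups in the fit). Pax6 also fell, by 1.14 (SE 0.22, adjusted p 0.0253), and Prom1 rose by 1.63 (SE 0.40, adjusted p 0.0435). These are 2 members called lower, where 7.70% of all genes were, and 1 called higher, where 17.4% were. Sox2 differed by -0.32 (SE 0.17, adjusted p 0.204), Sox9 by -0.28 (SE 0.19, adjusted p 0.309) and Msi1 by 0.17 (SE 0.20, adjusted p 0.538), and these 3 were not called, although the Sox2 libraries of replicate 2 (332, 343 and 337 CPM) were all below those of replicate 1 (455, 452 and 363 CPM).

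The size of the replicate difference varied by group. For Fabp7 the replicate 2 level was 0.266 times that of replicate 1 in VC+ (counting interval 0.260 to 0.272), 0.217 times in VC- (0.212 to 0.223) and 0.392 times in D0 cells (0.382 to 0.401). For Pax6 the ratios were 0.528 (0.412 to 0.676), 0.399 (0.303 to 0.525) and 0.384 (0.284 to 0.516). For Prom1 they were 2.73 (2.44 to 3.07), 1.64 (1.52 to 1.78) and 6.69 (6.23 to 7.19), so D0 cells differed most. The calls of Fabp7, Pax6 and Prom1 held without either D0 library. They were lost without VC+ replicate 1 (adjusted p 0.0790, 0.113 and 0.143), VC+ replicate 2 (0.0910, 0.0980 and 0.133), VC- replicate 1 (0.139, 0.194 and 0.0953) or VC- replicate 2 (0.158, 0.172 and 0.0841), while all signs stayed. Without a variance trend in limma the Prom1 call was also lost (adjusted p 0.0678).

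**Figure D3:**
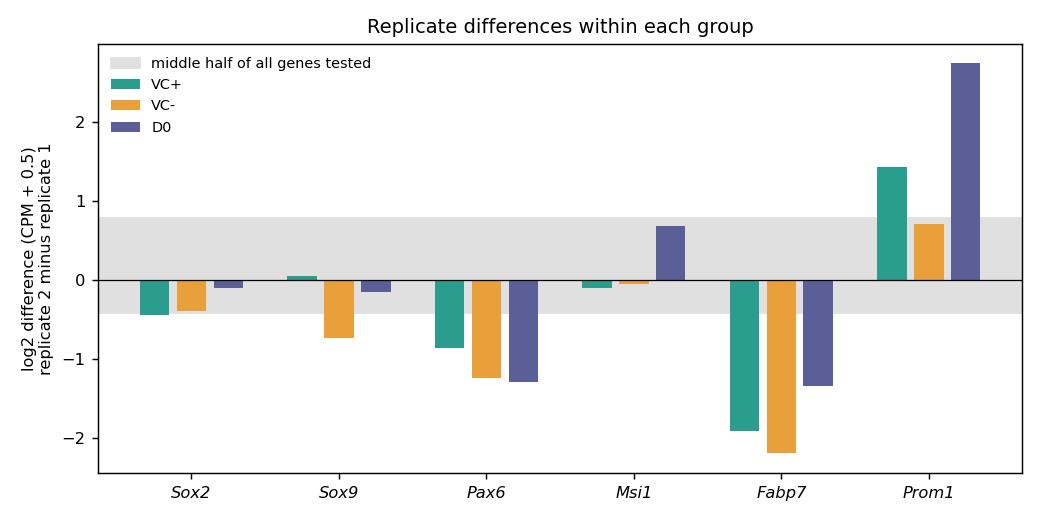
Log2 difference of replicate 2 minus replicate 1 for each gene in VC+, VC- and D0 cells (1 library minus 1 library per bar); the grey band runs from the lower to the upper quartile of all genes tested over the 3 groups, -0.42 to 0.78. Fabp7 and Pax6 lie below the band in all 3 groups, and Prom1 lies above it in VC+ and D0 cells.

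Genes with the pattern most like each member were sought among 9816 other genes with a mean of at least 5 CPM, by Pearson's r of log2(CPM + 0.5) over the 6 libraries. These are descriptions, since the 6 points share groups, replicate sets and depth. Fabp7 was nearest to Taf13, Pik3r1 and Eif4a1 (r = 0.998 for each), all lower in replicate 2. Pax6 was nearest to Eif1ad (0.998), Meis2 (0.996), a homeodomain factor at 14.2 and 1.87 CPM in VC+, 15.0 and 1.45 CPM in VC- and 15.5 and 1.12 CPM in D0 cells, and Usp54 (0.995). Among the members themselves Pax6 and Fabp7 were the most alike (r = 0.95). Sox2 was nearest to Ccny (0.997), Ube2v2 (0.996) and Fam63a (0.995), Sox9 to Itpk1 (0.981), Lrrc49 (0.977) and Erich1 (0.971), and Msi1 to Atp6v0c (0.984), Syngr1 (0.976) and Shc2 (0.975). Prom1 was nearest to Mmp17 (0.985), Kitlg (0.985) and P3h4 (0.978). Kitlg, the ligand of the Kit receptor, stood at 6.41 and 14.6 CPM in VC+, 12.7 and 17.5 CPM in VC- and 19.0 and 67.5 CPM in D0 cells, the same order within each replicate as Prom1.

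Other stem and progenitor genes mostly stood lower after differentiation, where the 6 members mostly did not. Of 30 listed genes, 24 were in the table and tested, and limma called none. DESeq2 with the replicate block called 8 lower in VC+ than in D0 and 6 lower in VC- than in D0, and none higher. For VC+ against D0 it called 347 lower and 425 higher of 11593 genes. For VC- against D0 it called 270 lower and 187 higher of 11364 genes. Without the block its calls included Nes, lower in VC+ than in D0. In VC+ against D0, both replicates were lower for 16 genes and higher for 3, and the median was -0.91, against 29.0% and 28.6% of all genes and an overall median of 0.01. In VC- against D0, 17 were lower and 1 higher, with a median of -0.60, against 29.5% and 28.6% of all genes. Of the 6 members, 1 was lower and 1 higher in both replicates in VC+ against D0, and 1 lower and 2 higher in VC- against D0, with medians of 0.06 and 0.09. The members were not compared with this list by a test. Without overlap with D0, 12 of the 24 were lower in VC+ and 12 in VC-, where 13.2% of all genes were in each.

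Nes (nestin), the intermediate filament protein of neural stem cells, stood at 35.3 and 32.5 CPM in VC+, 81.6 and 53.5 CPM in VC- and 159 and 116 CPM in D0 cells, a difference of -1.98 for VC+ against D0 (SE 0.30). Its adjusted p was 0.974 in limma, 0.0819 in limma with the block, 1.63e-05 in DESeq2 and 2.51e-09 in DESeq2 with the block. Egfr, the receptor of a mitogen used to expand such cells, stood at 69.7 and 20.8 CPM in VC+, 85.0 and 27.2 CPM in VC- and 194 and 132 CPM in D0 cells. The G1 cyclin Ccnd2 stood at 12.9 and 49.0 CPM, 21.0 and 45.0 CPM, and 53.5 and 119 CPM in VC+, VC- and D0 cells. For VC+ against D0, limma called neither Egfr nor Ccnd2. Their adjusted p was 0.123 each in limma with the block, 0.415 and 0.761 in DESeq2, and 1.41e-05 and 3.29e-04 in DESeq2 with the block. Nes, Egfr and Ccnd2 were chosen after their values were seen. The 3 list genes of highest mean level were mixed. Vim, another intermediate filament gene, stood at 560 and 3930 CPM in VC+, 1112 and 3482 CPM in VC- and 1304 and 3370 CPM in D0 cells. Notch1, the receptor of a pathway that maintains progenitors, stood at 597 and 242 CPM, 525 and 258 CPM, and 716 and 664 CPM. Its ligand gene Dll1 stood at 161 and 23.0 CPM, 256 and 33.7 CPM, and 217 and 101 CPM.

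**Figure D4:**
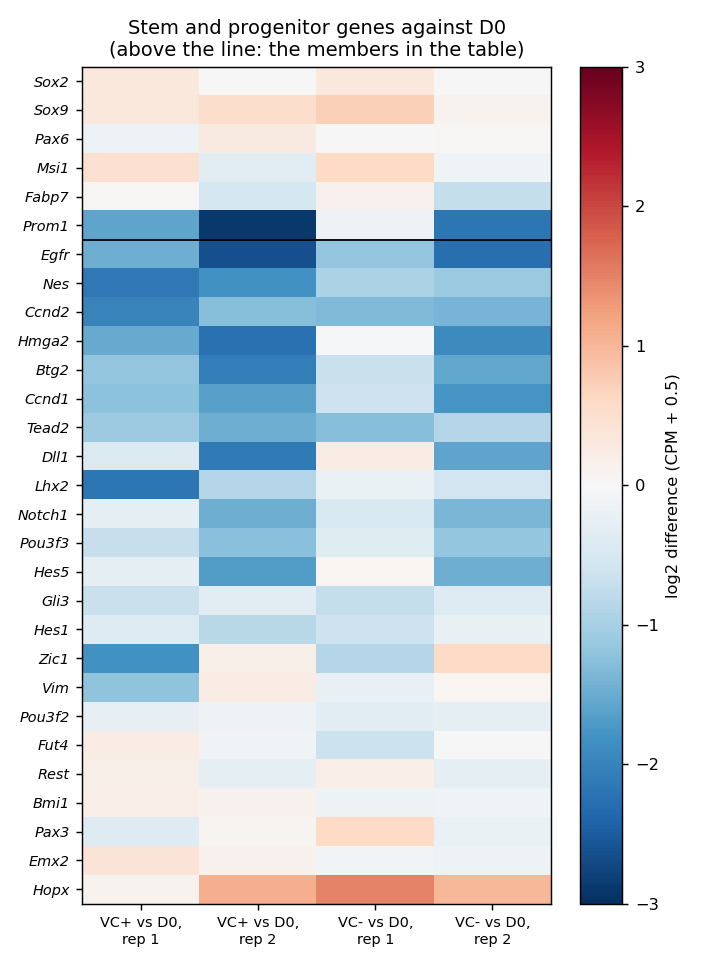
Log2 differences from D0 within each replicate (columns) for the 6 members (above the line) and the other stem and progenitor genes that are reported (below, ordered by their mean over the 4 columns); blue is lower and red higher than D0. Below the line most genes are blue, down to -2.63 for Egfr, while above it only Prom1 is blue in all 4 columns.

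Other SOX genes did not share one pattern. Of 15 listed, 10 were in the table and 9 tested, and limma called none between groups. DESeq2 called Sox11, a SoxC factor of new neurons, lower in VC+ than in D0 (adjusted p 0.0422). It stood at 31.7 and 26.3 CPM in VC+, 64.4 and 35.8 CPM in VC- and 70.0 and 101 CPM in D0 cells, and was chosen after its values were seen. The medians were -0.20 for VC+ against D0 and 0.00 for VC- against D0. Sox4, a SoxC factor of cells leaving the cycle, stood at 354 and 169 CPM in VC+, 434 and 223 CPM in VC- and 337 and 288 CPM in D0 cells. Sox10 and Sox8 belong to the same subgroup as Sox9 and act in the oligodendrocyte lineage. Sox8 stood at 155 and 19.9 CPM in VC+, 263 and 19.1 CPM in VC- and 114 and 36.0 CPM in D0 cells. Sox10, also on the oligodendrocyte marker list, stood at 513 and 42.7 CPM in VC+, 227 and 18.2 CPM in VC- and 26.5 and 7.16 CPM in D0 cells. Sox10 was thus higher than D0 in both replicates, as Sox9 was, by a difference of 3.37 for VC+ (SE 1.70). Its adjusted p was 1.00 in limma, 0.189 in DESeq2 and 3.28e-09 in DESeq2 with the block, and for VC- against D0 the values were 1.00, 0.808 and 0.00119. In replicate 2, 6 of the 9 were lower in all groups, as were 31.8% of all genes, and 3 were called lower in limma, where 7.70% of all genes were.

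Of 8 listed paralogs of the other members, 6 were in the table and tested, and neither limma nor DESeq2, with or without the block, called any in VC+ against VC-, VC- against D0 or VC+ against D0. For some of these paralogs DESeq2 gave no adjusted p in a comparison with D0, so it could not call them there. The medians of the 6 were 0.16 for VC+ against VC-, -0.18 for VC- against D0 and 0.11 for VC+ against D0. Fabp5, the epidermal fatty acid carrier that neural progenitors also express, stood at 388 and 305 CPM in VC+, 394 and 205 CPM in VC- and 301 and 234 CPM in D0 cells, a narrower spread than that of Fabp7. Fabp3, the heart form, stood at 6.41 and 4.68 CPM in VC+, 2.56 and 2.04 CPM in VC- and 5.30 and 2.04 CPM in D0 cells. Pax8 rested on few reads, down to 0, and other genes of this list also fell to very few reads.

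Markers of other cell types also differed between libraries, and their part in the differences of the members was not tested. Astrocyte markers, all 10 in the table, summed to 5161 and 7128 CPM in VC+, 1853 and 2888 CPM in VC- and 1695 and 2794 CPM in D0 cells. Their sum was thus highest in the group where Prom1 was lowest, but the list did not rise as a whole. In VC+ against D0, 6 of the 10 were higher and 3 lower in both replicates, as were 28.6% and 29.0% of all genes. Dividing-cell markers, 8 of 8, summed to 458 and 322 CPM, 450 and 289 CPM, and 884 and 677 CPM, highest in D0 as Prom1 was. In every group, however, this sum was lower in replicate 2, where Prom1 was higher. Ependymal markers, 5 of 8, summed to 41.2 and 727 CPM in VC+, 37.1 and 483 CPM in VC- and 31.4 and 101 CPM in D0 cells, the reverse of the order of Prom1 between groups. The defining gene Foxj1 stood at 33.4 and 391 CPM in VC+, 29.5 and 304 CPM in VC- and 25.1 and 87.3 CPM in D0 cells. The groups thus lay close together in replicate 1, for this gene as for the sum. Tmem212 was at 0 in D0 replicate 1. Oligodendrocyte lineage markers, 10 of 10, summed to 8919 and 853 CPM, 12455 and 1123 CPM, and 2310 and 802 CPM. Single genes weighed heavily in these sums, with Mbp at 5346 CPM in VC- replicate 1 and Olig1 at 1358 CPM in D0 replicate 1. In both replicates, 6 of the 10 were higher and 2 lower in VC+ against D0, and 6 higher and 1 lower in VC- against D0. The shares of all genes were 28.6% and 29.0%, and 28.6% and 29.5%. Of the 10 markers, 9 were called lower in replicate 2, where Fabp7, Pax6 and 7.70% of all genes also were. Neuron markers, 10 of 10, summed to 544 and 487 CPM, 672 and 490 CPM, and 538 and 550 CPM.

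Markers of cells that are not neural were read mainly in replicate 2. Microglia and macrophage markers, 10 of 10, summed to 515, 693 and 254 CPM in replicate 2 of VC+, VC- and D0 cells, against 4.50, 4.53 and 4.41 CPM in replicate 1, where C1qa, C1qb, C1qc, Aif1, Cx3cr1, Tyrobp, Ptprc and Trem2 were each at 0 in at least 1 library. Fibroblast, pericyte and meningeal markers, 9 of 10, summed to 4014, 6408 and 9990 CPM in replicate 2, against 256, 321 and 194 CPM in replicate 1, and were highest in the library where Prom1 was highest. Col1a1 alone reached 5968 CPM there. Within replicate 1, however, the fibroblast, pericyte and meningeal sum was lowest in D0, the group where Prom1 was highest. Of the stem cell markers, Sox2, Fabp7, Pax6 and Msi1 were read in all 6 libraries, with D0 values that overlapped those of both differentiated groups. Against D0, Sox9 was higher and Prom1 lower in VC+ without overlap, while both overlapped in VC-. Nes was higher in both D0 libraries than in any differentiated one.

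**Figure D5:**
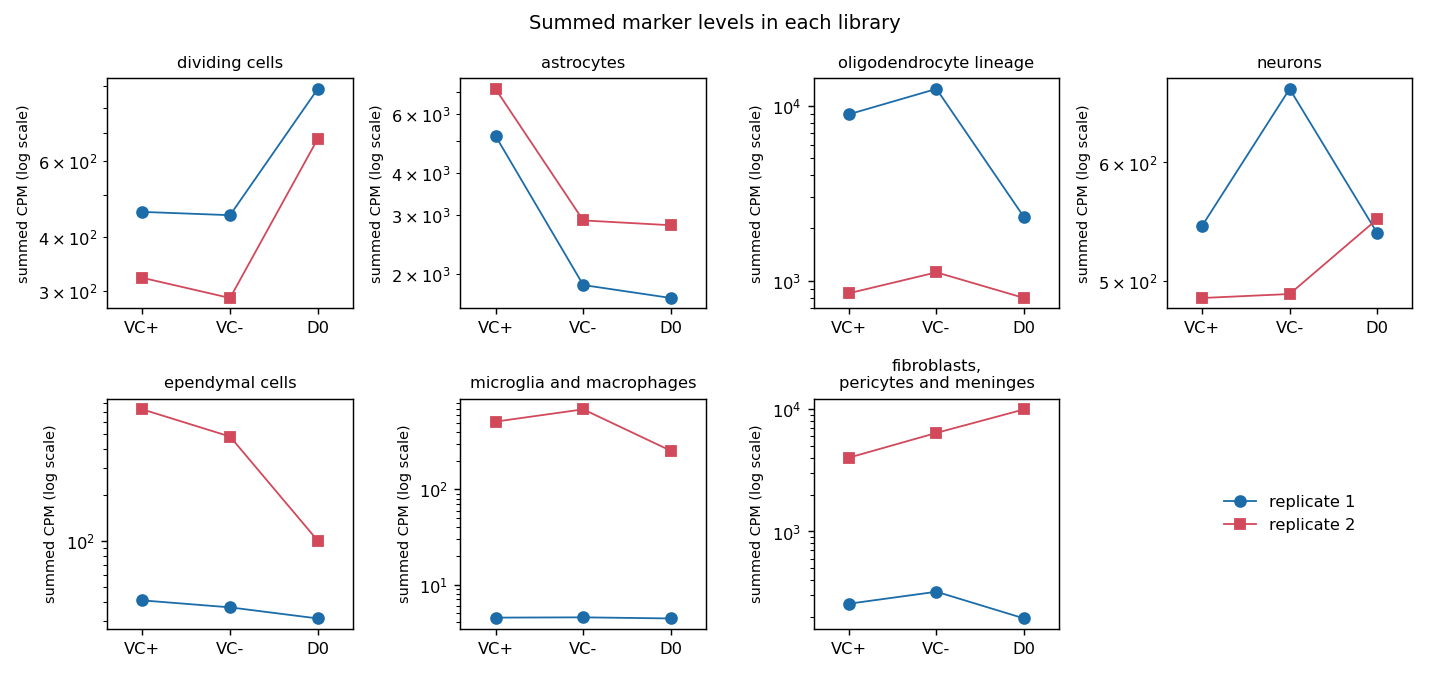
Summed CPM of marker genes of 7 cell types in each library (log axes, each panel with its own range); points are libraries and lines join libraries with the same replicate number. Microglial, fibroblast and ependymal markers are higher in replicate 2 of every group, oligodendrocyte markers are higher in replicate 1, and dividing-cell markers are highest in D0.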

How the data were processed

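The authors deposited 1 table of CPM per gene for the 6 RNA-seq libraries; per the labels' protocols, libraries were made with a TruSeq kit. STAR 2.5.1, edgeR 3.12.1 and rn5 are named in the submitters' processing notes with no role, and the read counter and gene filter are not given in the sources used here. The other 18 samples of the series were not analysed here. Every deposited CPM value was a whole multiple of the smallest value of its column (100% of values, relative tolerance 1e-06), so whole reads were recovered for count tests and intervals. The listed genes held 60.2% to 67.7% of the total behind the authors' scaling.

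The 11823 of 12187 genes that reached 1 CPM in 2 or more libraries were tested with limma 3.58.1 in R 4.3.3 (eBayes with trend, two-sided) on log2(CPM + 0.5), with all 3 groups in 1 fit and Benjamini-Hochberg adjustment over all genes tested. Replicate 2 was tested against replicate 1 in a fit with group and replicate. The smallest p of an exact permutation test of 2 libraries against 2 is 0.333. Ratios of reads have exact conditional binomial 95% intervals and single levels exact Poisson ones, for counting error only. Other settings tried were a filter of 5 CPM or none, pseudocounts of 0.1 or 2, rescaling by median of ratios, a fit with no variance trend, count tests of recovered reads (DESeq2 1.42.0, edgeR 4.0.16), a replicate block, and leaving out each library. The code was tested on simulated counts that kept the replicate differences of these libraries, with changes planted in VC+. For VC+ against VC-, limma without the block recovered 0 of 67 2-fold, 0 of 67 4-fold and 0 of 66 8-fold changes, and so did edgeR. With the block limma recovered 9, 66 and 66. A lack of limma calls without the block therefore cannot show that genes were unchanged.

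VC+ and VC- libraries of a number share a D label, and their replicate differences correlated at 0.914 across genes. By rule, named genes were the members, the 3 genes of highest mean CPM per list, list genes that passed limma, and the 3 most alike per member; Nes, Egfr, Ccnd2, Sox11 and markers at 0 in some library were named outside it, after their values were seen. The values of 1 list gene are not reported here. Members, lists and the rule were chosen with earlier results of these data known. Promoter sequences were found for 4 of the 6 members in the table.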

Additional observations from a re-analysis of the deposited data

How the results depend on the processing

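No group difference of a member was called in limma under any setting tried. Over the 24 group differences of the members, settings other than leaving out a library gave the same direction and call in 249 of 264 values, the opposite sign in 13 and a call gained in 2. The opposite signs were of values near 0 in count tests. For VC+ against VC-, edgeR and DESeq2 gave -0.028 and -0.022 for Sox9, -0.042 and -0.039 for Pax6, and -0.043 and -0.042 for Fabp7. For Pax6 they gave -0.030 and -0.009 for VC- against D0, -0.073 and -0.048 for VC+ against D0, and -0.051 and -0.028 for both together against D0. The cause was not tested.

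The replicate block pairs libraries by label between VC+ and VC- only; against D0 only the number is shared (correlations of replicate differences 0.688 for VC+ and 0.730 for VC-). With the block, DESeq2 called Prom1 lower in VC+ than in D0 (-2.364, adjusted p 0.000147) and in both together (-1.784, adjusted p 0.00134), where it called 6.66% and 7.22% of genes; limma with the block did not call it (adjusted p 0.154 and 0.169). EdgeR with the block gave -0.011 for Pax6 in VC- against D0. The block changed no other call of a member. Genes called for VC+ against VC- were 6 in DESeq2 and 32 with the block. For VC- against D0 they were 71 and 457, and for VC+ against D0 137 and 772, with 11 in edgeR with the block. For both together they were 177 and 854, with 7 in limma and 15 in edgeR with the block.

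Leaving out 1 library made no limma call between groups, which says nothing of stability since there was none with all libraries, and turned the sign in 27 of 144 differences; the lone library left in a group was assumed to vary like the others. For VC+ against VC- the ranges were -0.244 to 0.210 for Sox2, -0.348 to 0.397 for Sox9, -0.594 to 0.656 for Pax6, -1.048 to 1.153 for Fabp7, -0.202 to -0.091 for Msi1 and -1.799 to -0.364 for Prom1. For VC- against D0 they were -0.031 to 0.368 for Sox2, 0.042 to 0.787 for Sox9, -0.640 to 0.664 for Pax6, -0.111 to 0.569 for Msi1, -1.391 to 0.810 for Fabp7 and -2.529 to 0.207 for Prom1. For VC+ against D0 they were -0.076 to 0.378 for Sox2, -0.609 to 0.694 for Pax6, -0.258 to 0.423 for Msi1, -1.193 to 0.716 for Fabp7 and -3.611 to -0.874 for Prom1. For both together against D0 they were -0.625 to 0.679 for Pax6, -0.184 to 0.496 for Msi1 and -0.941 to 0.411 for Fabp7, 0.046 to 0.273 for Sox2, 0.240 to 0.613 for Sox9 and -3.070 to -0.334 for Prom1. For replicate 2 against replicate 1, Msi1 ranged from -0.078 to 0.317, and genes called ranged from 0 without VC- replicate 2 to 5049 without D0 replicate 2. Pax6, with 81 to 138 reads a library, is the member whose depth limits precision most.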
